A study of Homo sapiens with 30 samples.

Results

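CEP genes are named for "centrosomal protein", and most encode coiled-coil proteins of the centrosome, its centrioles, the centriolar satellites or the base of the cilium. All rows of the count table whose symbol is CEP followed by a number alone were taken, which gave 34 of 60664 genes. Of the 34 genes, 32 had enough counts to be tested in every fit, and CEP43 and CEP63 were listed at 0 counts in all 30 libraries.

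The centrosome is the main microtubule-organising centre of animal cells. It holds a pair of centrioles, which are copied during each cell cycle, and the older centriole carries appendages that anchor microtubules and dock it to the membrane when a cilium forms. Proteins such as CEP152 and CEP192 bring the copying kinase PLK4 to the centriole, CEP164, CEP83 and CEP89 build the distal appendages, and CEP250 and CEP68 belong to the linker that tethers the centrioles. Loss of several of these genes causes ciliopathies or small brain size, CEP290 being a common ciliopathy gene.

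RNA came from HEK293 cells, a human embryonic kidney line, in the Flp-In T-REx form, in which tetracycline switches on a gene placed at a fixed site. The inducible gene in both lines was GFP-TIA1a. TIA1 binds RNA and helps to build stress granules, and the lines carried it either as the wild type (WT) or with the mutation of Welander distal myopathy, a muscle disease (WDM). Cytosol of each line was sequenced untreated, with tetracycline, and with tetracycline followed by 0.5 mM sodium arsenite for 60 min, and granules purified through TIA1 were sequenced with tetracycline and with tetracycline and arsenite. Each of these 10 groups had 3 libraries, so every granule library and every cytosol library it was set against came from cells that had received tetracycline. Whether each line is a single clone, and whether replicates are separate cultures, is not given in the sources used here. The p-values therefore measure only the spread between these libraries, which may be technical. The design text describes granule preparation after arsenite, so how the label of stress granule applies to cells without arsenite is not stated, and the word granule below means the fraction pulled down through GFP.

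Total counts ran from 7971585 to 18884843 in cytosol libraries and from 5906167 to 27419145 in granule libraries. Of the markers listed for HEK293 cells, VIM reached 630.4 to 841 CPM (counts scaled to the library total) in cytosol, and CDH2, EPCAM, KRT8, KRT18 and KRT19 lay between 41.4 and 234 CPM. CDH1 (3.64 to 10.5 CPM), PAX2 (0.892 to 9.06) and NEFM (0 to 0.483) were low. The 6 listed markers of other cell types together reached 3.31 to 13.6 CPM, and PTPRC, CD68 and CDH5 had at most 4 counts in any library. TIA1 itself had at most 1 count in any library, so the table does not check the transgene.

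CEP43 and CEP63 had no counts. By the gene models of GENCODE v44 on GRCh38, 99.5% of the exon length of CEP43 and 99.9% of that of CEP63 lie inside the span of another gene on the same strand, but only 12.2% and 8.32% overlap that gene's exons. Those unnamed genes had 0 to 29 and 2 to 187 counts per library. A count of 0 allows up to 3 counts, or 0.109 to 0.508 CPM over the libraries, by counting error alone. The reason for the zeros was not tested. Some tested members share exon sequence with a gene on the opposite strand, the most being CEP57 with MTMR2 (20.9% of its exon length), CEP295 with TAF1D and an unnamed gene (14.0%) and CEP72 with TPPP (11.3%). Smaller overlaps were those of CEP76 with PSMG2 (7.59%), CEP68 with RAB1A (6.41%), CEP170 with unnamed genes (5.66%) and CEP95 with DDX5 and SMURF2 (5.56%), among others. The strand setting of the counting is not given, so levels of all genes with such an overlap are uncertain, and so are the ratios below that rest on them.

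The description of CEP mRNAs as long and rich in A and U held for most but not all of them. Their median coding length was 2688 bases against 1444.5 bases over 13584 coding genes tested, and 27 of 32 lay above that median. Gene span had a median of 66397 bp against 37981.5 bp. The 3′ UTR was of ordinary length, with medians of 1355.5 and 1334 bases. A and U together made up a median of 57.8% of the coding sequence against 47.7%, and the excess was in A: the median was 33.9% A against 25.8%, and 22.8% U against 21.6%. CEP290 was the richest in A at 42.0%, followed by CEP83 at 40.9%. At the other end, CEP68 had 21.5%, CEP72 23.0% and CEP131 23.1%.

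Because A content and U content each ran with a different measurement below, the most A-rich 60-base stretch within a coding exon is shown for selected genes. In the first 4, granule enrichment fell with arsenite in both lines. CEP164 had no called change of enrichment, that of CEP250 rose in WDM alone, and that of CEP68 rose in both lines. Sequences are GENCODE v44 transcripts, 5′ to 3′ on the coding strand, and capitals mark runs of at least 3 A.
CEP290: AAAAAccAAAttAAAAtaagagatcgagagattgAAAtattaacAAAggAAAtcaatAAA
CEP83: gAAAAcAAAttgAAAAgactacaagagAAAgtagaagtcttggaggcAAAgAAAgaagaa
CEP295: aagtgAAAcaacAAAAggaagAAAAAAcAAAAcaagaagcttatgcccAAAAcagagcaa
CEP350: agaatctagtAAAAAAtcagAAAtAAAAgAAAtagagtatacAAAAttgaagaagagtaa
CEP164: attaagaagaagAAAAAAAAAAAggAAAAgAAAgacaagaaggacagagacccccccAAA
CEP250: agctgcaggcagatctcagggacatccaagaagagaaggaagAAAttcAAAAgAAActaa
CEP68: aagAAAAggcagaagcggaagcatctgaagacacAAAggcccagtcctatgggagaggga
On GRCh38 these lie at chr12:88120172-88120231 (minus strand, exon 15), chr12:94312943-94313002 (minus, exon 15), chr11:93730069-93730128 (plus, exon 29), chr1:180092855-180092914 (plus, exon 34), chr11:117351920-117351979 (plus, exon 5), chr20:35478037-35478096 (plus, exon 17) and chr2:65069458-65069517 (plus, exon 2), all in coding sequence. A made up 60.0% of the stretch in CEP290, CEP295 and CEP350, 55.0% in CEP83, 46.7% in CEP250 and 40.0% in CEP68. CEP164 reached 61.7% although its whole coding sequence held only 26.2% A, and CEP97, whose enrichment rose in WT, also reached 61.7%, so a single stretch does not stand for the gene. Over all tested members the median stretch was 53.3% A against 43.3% in 13579 coding genes. The run AAAAA stood in 21 of 32 member stretches (65.6%) and in 34.8% of those of coding genes, read on the coding strand.

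TIA1 is known to bind U-rich RNA, so the most U-rich 60-base stretches are shown for CEP97 and CEP76, among the most U-rich coding sequences of the family, and for CEP131, its poorest. Letters are as before, T stands for U, and capitals mark runs of at least 3 T.
CEP97: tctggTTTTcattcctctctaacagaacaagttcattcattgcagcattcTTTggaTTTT
CEP76: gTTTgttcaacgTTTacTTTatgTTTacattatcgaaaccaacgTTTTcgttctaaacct
CEP131: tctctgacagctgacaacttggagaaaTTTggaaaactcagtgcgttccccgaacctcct
They lie at chr3:101765054-101765113 (plus strand, exon 11), chr18:12699046-12699105 (minus, exon 4) and chr17:81197814-81197873 (minus, exon 13) of GRCh38. U made up 43.3% of the stretch in CEP97 and CEP76 and 25.0% in CEP131. TTTTT stood in 3 of 32 member stretches (9.38%), those of CEP95 and CEP120 among them, against 18.0% over coding genes. What TIA1 binds in these sequences was not measured.

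In untreated cytosol the levels per kilobase of transcript spanned a wide range. CEP20, a small protein of satellites and the ciliary base, and CEP55, which works in the final cut of cell division, stood highest, at 47.6 and 47.2 CPM per kb over both lines. In WT the means were 55.3 ± 1.38 (SD, n = 3) for CEP20 and 49.5 ± 0.51 for CEP55, and in WDM the order was the reverse, at 39.8 ± 1.91 and 45.0 ± 1.15. CEP57 followed at 32.0 and CEP170 at 27.1. The lowest were CEP162 at 4.70 and CEP126 at 0.828 CPM per kb. Most others lay close together, and the order of neighbours there, such as CEP350 (15.1), CEP295 (13.9) and CEP70 (13.8), means little beside their spread. In bulk RNA, fewer cells of a type and less RNA per cell cannot be told apart.

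Summed over members, the CEP mRNAs took a larger part of granule RNA than of cytosol RNA. The sum ran from 2183 to 2591 CPM over the 18 cytosol libraries. In granules without arsenite it was 4309 ± 177 CPM (SD, n = 3) in WT and 4026 ± 96.2 CPM in WDM. With arsenite it was 3075 ± 111 CPM and 2921 ± 70.6 CPM. All 12 granule libraries exceeded all cytosol libraries, and the granule groups with and without arsenite did not overlap in either line. CEP350 alone had a mean of 203 CPM in WT cytosol with tetracycline, 1199 CPM in WT granules without arsenite and 513 CPM in those with it.

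Granule enrichment is given as the log2 ratio of granule to cytosol, estimated by edgeR's quasi-likelihood test over the 24 libraries of tetracycline-treated cells and called at an adjusted p under 0.05. All ratios, changes and differences that follow are on the log2 scale, with ± for the SE. Without arsenite, 18 of 32 members were higher in WT granules and 7 were lower, against 39.5% and 36.2% of 18141 genes. In WDM 18 were higher and 8 lower, against 35.8% and 35.3% of genes. The 18 higher members were identical in both lines, and the 7 lower in WT were all among the 8 lower in WDM. The member medians were 0.49 in WT and 0.54 in WDM, beside 0.07 and 0.02 over all genes.

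CEP128, CEP350 and CEP112, 3 of the 4 members listed under microtubules and anchoring, had the highest ratios in both lines without arsenite. CEP350, which anchors microtubules at the centriole, had 239.8, 187 and 181 CPM in the WT cytosol libraries and 1124, 1300.4 and 1174 CPM in WT granules, a log2 ratio of 2.53 ± 0.19. In WDM it had 246, 181 and 231 against 692, 1115 and 1016 CPM, a ratio of 2.11 ± 0.19. Every granule library lay far above every cytosol library.

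CEP128, a protein of the subdistal appendages, and CEP112 gave ratios of the same size. CEP128 had 61.4, 36.5 and 33.3 CPM in WT cytosol and 264, 245 and 289.9 in WT granules, with a ratio of 2.57 ± 0.19. For CEP112 the values were 34.5, 21.4 and 15.0 against 133, 125 and 156 CPM, a ratio of 2.51 ± 0.23. Both genes spread widely among the WT cytosol libraries, where replicate 1 was highest. In WDM the ratios were 2.34 ± 0.19 and 2.17 ± 0.23. CEP170, which binds microtubules, was enriched less, at 0.74 ± 0.12 in WT and 0.66 ± 0.12 in WDM.

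The appendage and cilium genes split into both directions. CEP83 had 57.9, 46.9 and 48.7 CPM in WT cytosol and 179, 166 and 235 in WT granules (ratio 1.88 ± 0.15). Of the 10 tested genes of this role 6 were higher and 4 lower in each line, CEP83, CEP126, CEP162, CEP164 and CEP290 being among the higher ones. The 4 lower ones were CEP19, CEP20, CEP41 and CEP89. The call on CEP126 in WDM was lost without replicate 2 of WDM tetracycline cytosol (adjusted p = 0.0582). That on CEP89 was lost in WT without replicate 1 of WT tetracycline granules (adjusted p = 0.0645), and in WDM without replicate 2 of WDM tetracycline cytosol (adjusted p = 0.0515) or of WDM tetracycline granules (adjusted p = 0.0605). CEP19, a small ciliogenesis factor that works with CEP350, had 15.5, 16.8 and 16.2 CPM in WT cytosol and 3.89, 2.73 and 2.94 in WT granules, a ratio of -2.43 ± 0.19. CEP20 had 118, 156 and 149 CPM against 36.7, 26.2 and 28.9, a ratio of -2.26 ± 0.17. No granule library of either gene reached the lowest cytosol library. In WDM the ratios were -1.64 ± 0.19 and -1.94 ± 0.16.

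Among the 11 tested genes of centriole duplication and assembly, 4 were higher and 2 lower in each line. The higher ones were CEP295, which lets a new centriole mature into a centrosome, CEP152, CEP192 and CEP135, at 1.29 ± 0.13, 1.03 ± 0.13, 0.57 ± 0.13 and 0.37 ± 0.13 in WT. CEP57 and CEP76 were the lower ones, at -0.64 ± 0.14 and -0.76 ± 0.14 in WT. The call on CEP135 in WT was lost without replicate 1 of WT tetracycline cytosol (0.30, adjusted p = 0.0814) or of WT tetracycline granules (0.28, adjusted p = 0.0871). The linker gene CEP250 was higher, at 1.33 ± 0.17 in WT and 0.98 ± 0.17 in WDM. Both satellite genes, CEP72 and CEP131, were higher, at 0.92 ± 0.12 and 0.64 ± 0.15 in WT. CEP55 was lower, with 116, 148 and 129.5 CPM in WT cytosol against 53.5, 40.1 and 44.8 in granules (ratio -1.56 ± 0.13).

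**Figure D1:**
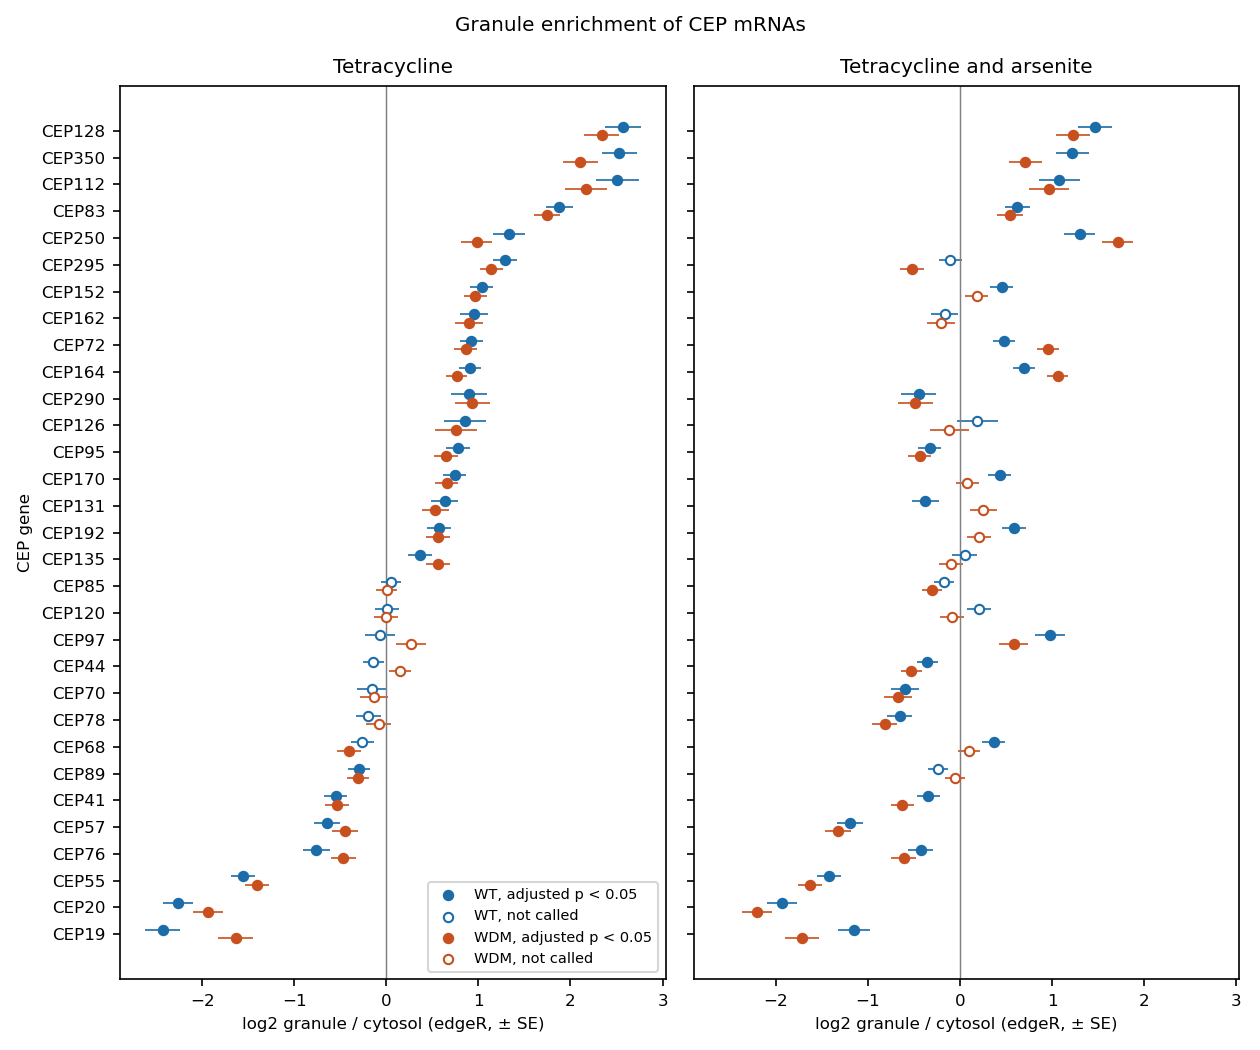
The log2 ratio of granule to cytosol level (x axis) is plotted with its SE for 31 of the 32 tested CEP genes (rows), without arsenite on the left and with arsenite on the right, WT in blue and WDM in orange. Filled points passed an adjusted p under 0.05 (edgeR), 17 of them above 0 in each line on the left and 12 (WT) and 8 (WDM) on the right.

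With arsenite the family no longer leaned towards the granules. In WT 13 members were higher and 12 lower, against 35.0% and 35.5% of genes, with a median of -0.03. In WDM 9 were higher and 13 lower, against 36.3% and 35.7% of genes, with a median of -0.09. Of the 18 members higher without arsenite, 11 were still called higher in WT and 8 in WDM. CEP95 and CEP290 went from higher to lower in both lines, CEP131 in WT and CEP295 in WDM. The lower call on CEP95 in WT was lost without replicate 2 of WT arsenite cytosol (adjusted p = 0.0646) or replicate 3 of WT arsenite granules (adjusted p = 0.0730). The ratio of CEP290 with arsenite was -0.45 ± 0.19 in WT and -0.49 ± 0.19 in WDM, and both calls were lost when single libraries were left out (adjusted p up to 0.179 without replicate 2 of WT arsenite granules, and up to 0.0799 without replicate 3 of WDM arsenite granules). The call on CEP131 in WT was lost without replicate 1 of WT arsenite granules (-0.19, adjusted p = 0.203) or replicate 3 of WT arsenite cytosol (-0.34, adjusted p = 0.0790).

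The change itself was tested as the difference between the ratio with and the ratio without arsenite. In WT 3 members rose and 11 fell, against 12.0% and 19.4% of all genes. In WDM 2 rose and 15 fell, against 7.66% and 16.5%. The medians were -0.31 in WT and -0.45 in WDM, beside -0.21 and -0.17 over all genes. CEP57, CEP83, CEP95, CEP112, CEP128, CEP152, CEP162, CEP290, CEP295 and CEP350 fell in both lines, 10 of the 11 WT genes (90.9%) and of the 15 WDM genes (66.7%). When each library's trend with GC content was removed, 3 rose and 10 fell in WDM, the calls on CEP44, CEP78, CEP126, CEP135 and CEP170 being lost. With the replicate number as a block, CEP72 was also called lower in WT (-0.44, adjusted p = 0.0439, against 0.0517 without the block). Same-numbered WT tetracycline libraries of cytosol and granules did not pair, however (correlations of their deviations -0.18, -0.25 and 0.14), so the block is not warranted there.

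CEP295 gave the largest fall in WDM. It had been singled out beforehand for losing granule enrichment with arsenite in WDM in these same data, so its WDM test is not independent support. Its cytosol values were slightly higher with arsenite, without overlap but without a call, at 108, 101 and 97.7 CPM in WT without arsenite and 126, 114 and 116 with it, and 106, 96.3 and 109 against 129, 119 and 124 in WDM. In granules it went from 257, 242 and 274 CPM to 120.3, 97.0 and 113 in WT, and from 204, 248 and 233 to 96.2, 91.0 and 83.7 in WDM. In both lines every granule library without arsenite was above every granule library with it. The change of enrichment was -1.39 ± 0.18 in WT (adjusted p = 4.97e-06) and -1.66 ± 0.18 in WDM (adjusted p = 1.76e-06), and it passed with any single library left out. In WDM its level with arsenite was below that of cytosol (-0.52 ± 0.13, adjusted p = 5.62e-04), while in WT the difference did not pass (-0.10 ± 0.13, adjusted p = 0.470). The difference between the lines in the change was -0.27 ± 0.25 (adjusted p = 0.773), so a fall greater in WDM than in WT was not shown.

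CEP290 and CEP350 also fell in both lines. CEP290, a gatekeeper of the ciliary transition zone, had 227, 111 and 263 CPM in WT granules without arsenite and 91.3, 78.6 and 104 with it, where replicate 2 without arsenite stood well below the others. The WDM granule values were 195, 209 and 244 against 96.5, 91.8 and 83.3 CPM, with no overlap. In cytosol of tetracycline-treated cells it lay at 96.2 to 129 CPM over the WT libraries and 90.3 to 131 over those of WDM. Its change was -1.35 ± 0.27 in WT and -1.42 ± 0.27 in WDM.

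For CEP350 granule values with arsenite were 574, 448 and 517 CPM in WT and 408, 458 and 384 in WDM, all below the values without arsenite given above. Cytosol with arsenite held 240.2, 216 and 209 against 257, 250.2 and 226 CPM. The changes were -1.31 ± 0.25 and -1.40 ± 0.25. Even so, CEP350 stayed above cytosol with arsenite, at 1.22 ± 0.18 in WT and 0.71 ± 0.18 in WDM.

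In CEP83, CEP112 and CEP128 granule values were lower and cytosol values higher with arsenite. CEP83 had 124, 154 and 115 CPM in WT granules with arsenite, below the values without it, while its cytosol level went up to 85.0, 89.4 and 80.3 CPM. In WDM the granule values were 250.2, 173 and 193 and then 179, 146 and 129 CPM, which overlap, and the cytosol values 61.7, 54.8 and 65.6 and then 107, 93.7 and 96.0. Its change was -1.26 ± 0.20 in WT and -1.20 ± 0.20 in WDM.

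CEP112 with arsenite had 92.4, 119 and 90.2 CPM in WT granules and 51.3, 51.1 and 40.3 in WT cytosol. The WDM values were 207, 133 and 147 CPM in granules without arsenite and 151, 104 and 112 with it, and 43.4, 24.0 and 39.6 against 77.8, 47.0 and 55.1 in cytosol. Its change was -1.43 ± 0.31 in WT and -1.20 ± 0.31 in WDM, so the fall passed although the WDM granule groups overlapped.

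CEP128 with arsenite had 211, 225 and 176 CPM in WT granules and 73.3, 80.1 and 68.7 in WT cytosol. In WDM it went from 299, 209 and 226 to 212, 189.6 and 159.9 CPM in granules and from 59.6, 34.6 and 49.9 to 92.7, 69.9 and 66.9 in cytosol. The change was -1.10 ± 0.26 in WT and -1.11 ± 0.26 in WDM, and the granule groups overlapped in WDM.

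CEP162, which caps axonemal microtubules at the transition zone, had 52.0, 38.8 and 68.5 CPM in WT granules without arsenite and 33.9, 30.0 and 34.6 with it. WDM granules had 41.7, 35.3 and 38.5 against 26.0, 27.4 and 23.3 CPM. Cytosol went the other way, from 26.3, 28.1 and 26.0 to 38.4, 35.7 and 36.8 CPM in WT and from 20.4, 19.3 and 21.8 to 28.8, 30.8 and 25.0 in WDM. No granule group of CEP162 overlapped its partner, and the change was -1.12 ± 0.21 in WT and -1.11 ± 0.21 in WDM.

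CEP95 repeated this pattern. Its granule values were 64.8, 57.7 and 78.2 CPM and then 40.2, 43.3 and 38.9 in WT, and 76.7, 57.3 and 59.4 and then 47.1, 42.4 and 34.4 in WDM. Cytosol values rose from 37.0, 38.6 and 38.3 to 48.2, 55.2 and 50.8 CPM in WT and from 40.9, 40.1 and 41.3 to 50.5, 55.2 and 54.0 in WDM. The groups separated in both fractions, with changes of enrichment of -1.11 ± 0.18 and -1.08 ± 0.18.

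CEP152 and CEP57, which with CEP63 form the scaffold around the parent centriole, fell less. CEP152 had 126, 91.0 and 144 CPM in WT granules without arsenite and 103, 95.1 and 95.3 with it, and 111, 96.3 and 104 against 89.2, 83.4 and 79.1 in WDM. Cytosol held 56.7 to 57.7 CPM and then 68.8 to 77.7 in WT, and 51.1 to 54.5 and then 64.6 to 75.8 in WDM. The changes were -0.58 ± 0.18 and -0.78 ± 0.18, and that of WT was lost without replicate 3 of WT tetracycline granules (-0.42, adjusted p = 0.0679) or replicate 2 of WT arsenite cytosol (-0.52, adjusted p = 0.0527).

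CEP57 had 58.8, 42.0 and 69.9 CPM and then 44.3, 39.4 and 34.3 in WT granules, and 73.5, 62.8 and 62.4 and then 39.2, 33.9 and 33.2 in WDM granules. Over all 12 cytosol libraries of tetracycline-treated cells it lay at 76.9 to 94.7 CPM. The WDM granule groups were far apart and the WT groups overlapped. The change was -0.56 ± 0.20 in WT, which 8 of the 12 fits with a library left out lost (adjusted p up to 0.166, without replicate 3 of WT tetracycline granules), and -0.87 ± 0.20 in WDM, which none lost.

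The remaining 5 WDM falls had no call in WT, and CEP131 had a call in WT alone. CEP44, a protein of the centriole lumen, had 76.1, 68.8 and 68.7 CPM in WDM granules and 44.6, 37.7 and 45.2 with arsenite, with no overlap. The WT granule values were 60.6, 47.2 and 60.6 and then 48.4, 43.2 and 43.6 CPM, which overlap. Its changes were -0.68 ± 0.16 in WDM and -0.21 ± 0.16 in WT. CEP78, at the far end of the centriole, had 93.2, 92.4 and 102 CPM and then 56.5, 63.7 and 55.5 in WDM granules. In WT it had 94.8, 63.6 and 95.8 and then 59.2, 51.1 and 61.9 CPM, and neither line's groups overlapped. The changes were -0.73 ± 0.19 in WDM and -0.46 ± 0.19 in WT. In both genes the WT change had the same sign as that of WDM, and the difference between the lines was not called.

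CEP135, CEP170 and CEP126 gave changes of -0.66 ± 0.19, -0.58 ± 0.17 and -0.87 ± 0.31 in WDM and of -0.31 ± 0.19, -0.31 ± 0.17 and -0.67 ± 0.32 in WT. Granule values of CEP135 were 71.9, 62.2 and 66.2 CPM and then 50.8, 61.9 and 51.9 in WDM, and 79.7, 57.5 and 71.5 and then 68.5, 51.6 and 64.1 in WT. CEP170 had 330.2, 327 and 344 CPM and then 267, 262 and 279 in WDM, and 302, 291 and 319 and then 279, 282 and 282 in WT, without overlap in either line. CEP126 is a thinly counted gene, with 10.4, 7.37 and 8.26 and then 8.34, 6.04 and 7.00 CPM in WDM and 9.82, 6.72 and 12.3 and then 6.20, 6.58 and 7.39 in WT. Its WDM call was lost in 8 of 12 fits that left out a library (adjusted p up to 0.155, without replicate 2 of WDM tetracycline cytosol), and that of CEP170 was lost in 2 (adjusted p up to 0.0654, without replicate 2 of WDM tetracycline cytosol).

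CEP131, a satellite protein, had 48.6, 47.3 and 46.6 CPM in WT granules and 16.5, 26.4 and 30.7 with arsenite, where replicate 1 was lowest. WDM had 40.9, 42.7 and 38.8 and then 33.6, 33.2 and 30.8 CPM. Both pairs of groups separated, and the change of enrichment was -1.01 ± 0.21 in WT and -0.27 ± 0.21 in WDM (adjusted p = 0.359). The difference between the lines was 0.74 ± 0.29 (adjusted p = 0.604).

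CEP68, which joins CEP250 in the centriole linker and is the member poorest in A, was the only member whose enrichment rose in both lines. In granules it went from 26.2, 32.0 and 27.0 CPM to 45.9, 45.2 and 46.1 in WT and from 31.4, 23.8 and 26.6 to 41.1, 38.0 and 45.4 in WDM, with no overlap. Cytosol of tetracycline-treated cells held 30.2 to 36.3 CPM in WT and 32.3 to 42.3 in WDM. The change was 0.63 ± 0.18 in WT, passing with any library left out, and 0.50 ± 0.18 in WDM, which 8 of 12 such fits lost (adjusted p up to 0.109, without replicate 3 of WDM arsenite granules).

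CEP250 had 192, 259 and 185 CPM in WT granules and 153, 163 and 200.0 with arsenite, and in WDM 119, 155 and 141 and then 192, 166 and 243. Its cytosol values were 94.9, 74.9 and 76.9 and then 78.6, 66.8 and 63.9 CPM in WT, and 71.8, 64.0 and 75.2 and then 72.2, 46.3 and 57.5 in WDM. Only the WDM granule groups separated, upwards. The change was 0.73 ± 0.24 in WDM and -0.03 ± 0.24 in WT, and the WDM call was lost in 4 of 12 fits with a library left out (adjusted p up to 0.104, without replicate 3 of WDM arsenite granules).

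CEP97 and CEP19 rose in WT. CEP97, which with CP110 caps the centriole, had 96.2, 69.2 and 57.7 CPM and then 163, 117 and 127 in WT granules, and 86.5, 99.1 and 102 and then 95.6, 114 and 131 in WDM. Its range in cytosol of tetracycline-treated cells was 67.3 to 80.6 CPM. The change was 1.05 ± 0.23 in WT and 0.32 ± 0.22 in WDM (adjusted p = 0.323). CEP19 had 5.30, 5.12 and 6.50 CPM in WT granules with arsenite, all above the values without it, while WDM had 2.78, 3.82 and 2.75 and then 2.34, 2.15 and 2.95. Its cytosol values with arsenite were 12.2, 12.3 and 13.3 CPM in WT and 7.22, 7.28 and 9.10 in WDM. The change was 1.28 ± 0.26 in WT and -0.08 ± 0.26 in WDM.

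No member passed the test of a difference between the lines in the arsenite change. No gene of 18141 did (0%), and 6 members and 1451 genes had an unadjusted p under 0.05 in edgeR. CEP19 showed the largest value, -1.36 ± 0.37 (WDM minus WT, adjusted p = 0.604), followed by CEP250 at 0.76 ± 0.34, CEP131 at 0.74 ± 0.29 and CEP97 at -0.73 ± 0.32. The enrichment itself also did not differ between lines by this test in any member, without arsenite (0.00551% of genes called, 1 member at an unadjusted p under 0.05) or with it (0.00551%, 6 members).

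**Figure D2:**
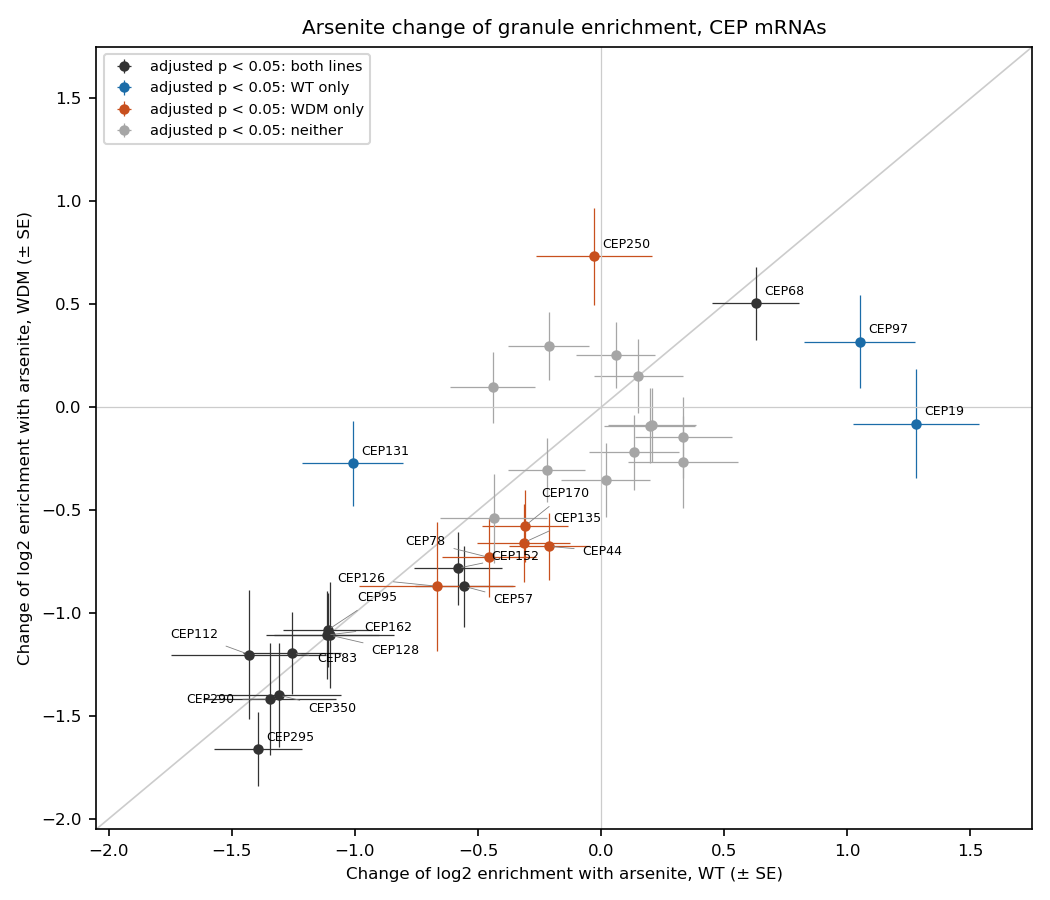
Each point is a CEP gene, placed by the change of its log2 granule to cytosol ratio with arsenite in WT (x axis) and in WDM (y axis), with SE bars and a diagonal of equal change. Black points passed an adjusted p under 0.05 in both lines and lie mostly at the lower left, with CEP295 lowest at -1.66 in WDM, and CEP68 is the black point above 0.

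**Figure D3:**
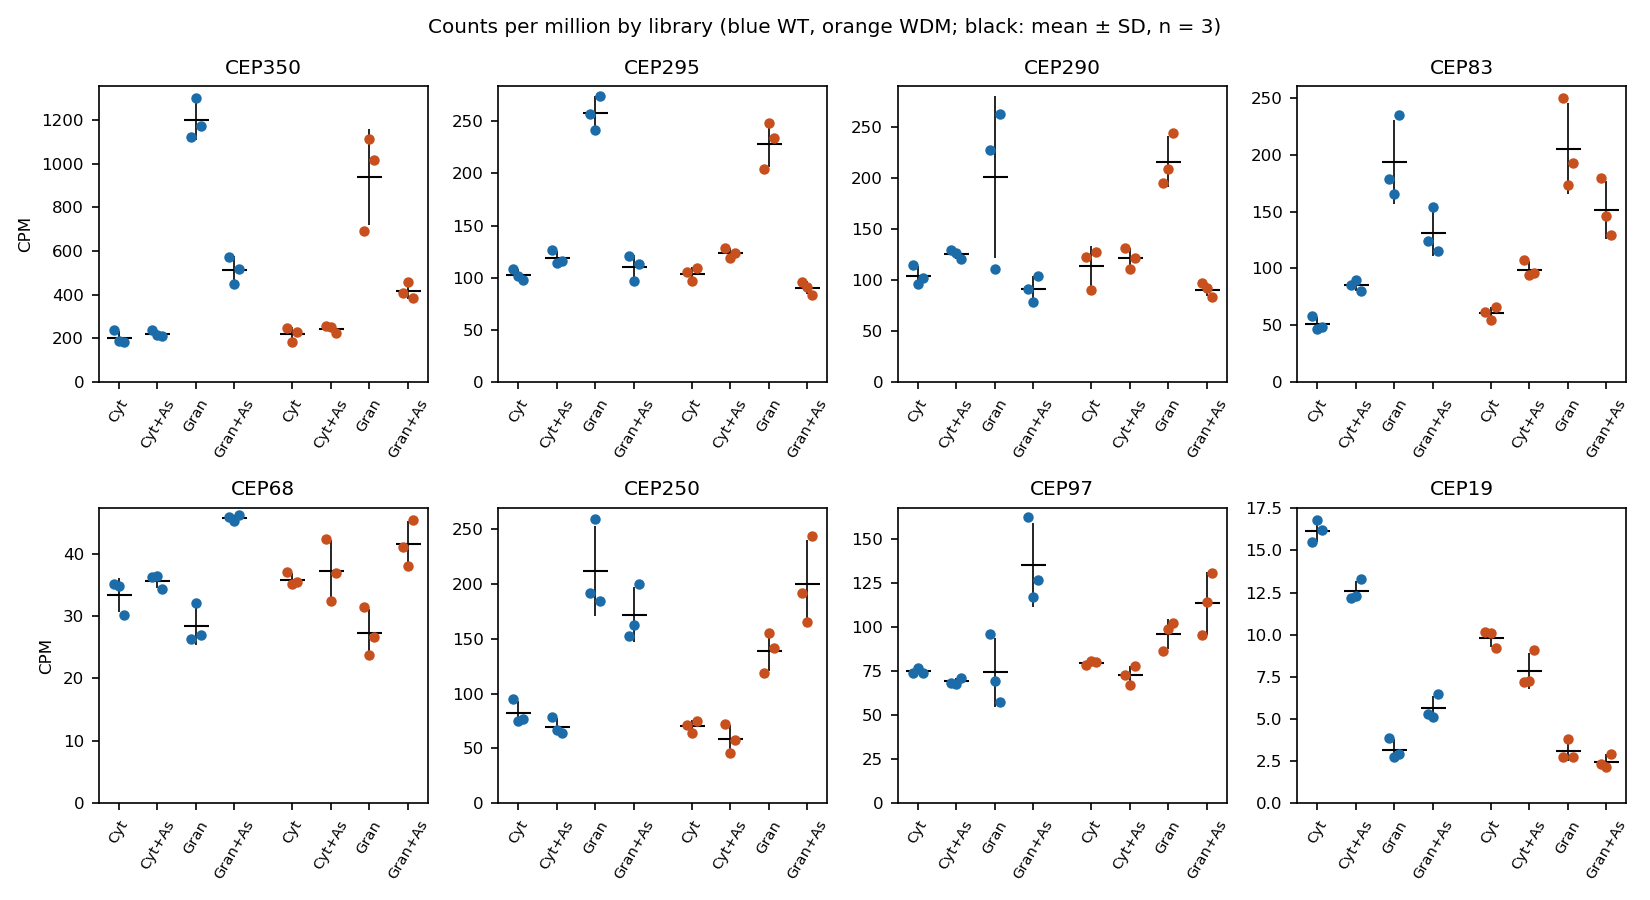
CPM of 8 CEP genes in each cytosol (Cyt) and granule (Gran) library of tetracycline-treated cells, without and with arsenite (+As), WT in blue and WDM in orange, with the mean and SD of 3 libraries in black. In CEP350 and CEP295 the granule libraries with arsenite all lie below those without, and in CEP68 they all lie above.

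In granules taken alone, arsenite raised 4 members and lowered 10 in WT, against 16.5% and 14.1% of 18366 genes. In WDM it raised 3 and lowered 14, against 18.7% and 17.7%. The largest falls were those of CEP295, at -1.20 ± 0.16 and -1.41 ± 0.16, CEP350, at -1.20 ± 0.20 and -1.25 ± 0.20, and CEP290, at -1.10 ± 0.21 and -1.32 ± 0.21. CEP68 rose in both, by 0.70 ± 0.16 and 0.55 ± 0.16. These 4 genes kept their calls with any single library left out, except CEP68 in WDM. So did CEP95, CEP97 and CEP131 in WT and CEP44, CEP57, CEP78, CEP95 and CEP162 in WDM, while the other 7 calls in WT and the other 8 in WDM were each lost in at least 1 of 6 such fits. With the trend on GC content removed, 11 members were called in WDM in place of 17. The call on CEP170 in WDM (-0.38 ± 0.15) was lost with the replicate number as a block (adjusted p = 0.0613). Same-numbered WDM granule libraries deviated together (correlations 0.58, 0.22 and 0.35). The block also covered the WT granule libraries, which did not pair (0.29, 0.36 and -0.15). The difference between lines in this effect was called in no member (0% of genes, 7 members at an unadjusted p under 0.05, 2329 genes).

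Between the lines within granules, 0 members were higher and 1 lower in WDM without arsenite, against 2.60% and 2.95% of genes. That was CEP250, at -0.62 ± 0.18, whose call was lost in 3 of 6 fits with a library left out and when only the compared groups were fitted. With arsenite 1 was higher and 2 lower in WDM, against 4.11% and 3.84%. CEP19 (-1.27 ± 0.24) and CEP20 (-0.97 ± 0.19) were lower, and CEP72 (0.53 ± 0.15) was higher. CEP20 had 32.9, 26.0 and 33.9 CPM in WT granules with arsenite and 14.2, 16.2 and 20.0 in WDM. CEP72 had 53.9, 74.2 and 63.2 against 105, 89.7 and 96.4 CPM. In all 3 genes the lines did not overlap. The call on CEP72 was lost in 4 of 6 fits with a library left out and with the trend on GC content removed (adjusted p = 0.0551).

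Enrichment without arsenite ran with gene span and coding length across the family. Spearman's coefficient over the 32 members was 0.72 with gene span and 0.73 with coding length in WT, and 0.74 with each in WDM. Over 13584 coding genes it was 0.60 and 0.50 in WT and 0.63 and 0.50 in WDM, so the relation is not particular to CEP genes. With the length of the whole transcript it was weaker in members, at 0.35 in WT and 0.38 in WDM, against 0.47 and 0.50 over coding genes. Members with a span above 150 kb, CEP83, CEP112, CEP128 and CEP350, were the 4 most enriched, and CEP19, with a span of 5.97 kb, and CEP20, with 22.9 kb, the most depleted. The 3′ UTR length ran the other way in members (coefficient -0.27 in WT, against 0.23 in coding genes).

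Several nuclear RNAs were also higher in the granule fraction. NEAT1, a noncoding RNA of nuclear paraspeckles, had 46.7 to 266 CPM in cytosol libraries and 1377 to 2623 in granule libraries, and MALAT1 had 144 to 564 and 403 to 992. GAS5, on the same list, had 161 to 321 CPM in cytosol and 47.6 to 179.6 in granules. Of the 6 tested, 4 were higher and 0 lower in WT granules without arsenite, and 3 were higher and 1 lower in each of the other comparisons of granule and cytosol. The shares over all genes in these comparisons are given above. The 7 listed nuclear RNAs summed to 453 to 1196 CPM over cytosol and 2490 to 3871 over granule libraries. Between granules without and with arsenite that sum overlapped, at 2812 to 3871 and 2971 to 3214 CPM in WT and 2494 to 3151 and 2490 to 3547 in WDM. The sum of the mitochondrial transcripts was 989 to 1966 CPM over cytosol libraries. It was 1974 to 4327 CPM without and 536 to 1450 CPM with arsenite in WT granules, without overlap. In WDM granules it was 1194 to 4203 and 1003 to 1674 CPM, which overlap. The part of either in the enrichment of CEP mRNAs was not tested.

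The arsenite change ran with A content, a measure examined after the values had been seen. Spearman's coefficient with the A share of the coding sequence was -0.55 in WT and -0.74 in WDM over 32 members, against -0.07 and -0.40 over 13577 coding genes. With U share it was 0.14 and -0.26 over members, and 0.02 and -0.33 over coding genes. After removal of each library's trend on GC content the values for A were -0.59 and -0.63. Gene span gave -0.55 in WT and -0.45 in WDM. These are descriptions across genes measured in the same libraries, and length, A content and starting enrichment are not independent among the 32 genes.

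The difference between lines in the arsenite change ran with U content among the members. The coefficient with the U share was -0.75 over members and -0.47 over coding genes, and -0.47 over members with the GC trend removed. With the A share it was -0.11 and -0.43. With gene span it was 0.37 and 0.07, and 0.54 over members with the GC trend removed, then larger in size than that with U. At the U-poor end CEP131 (11.8% U), CEP250 (14.8%), CEP164 (16.8%) and CEP72 (18.5%) had the 4 highest differences, 0.74, 0.76, 0.51 and 0.54. At the U-rich end lay CEP76 (28.4%), CEP44 (27.7%), CEP192 (26.9%), CEP97 (26.6%) and CEP20 (26.1%). Of these, CEP44 had a called arsenite change in WDM alone and CEP192 in neither line, while CEP76, CEP97 and CEP20 had differences of -0.48, -0.73 and -0.60. None of these differences was called by itself, as stated above.

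**Figure D4:**
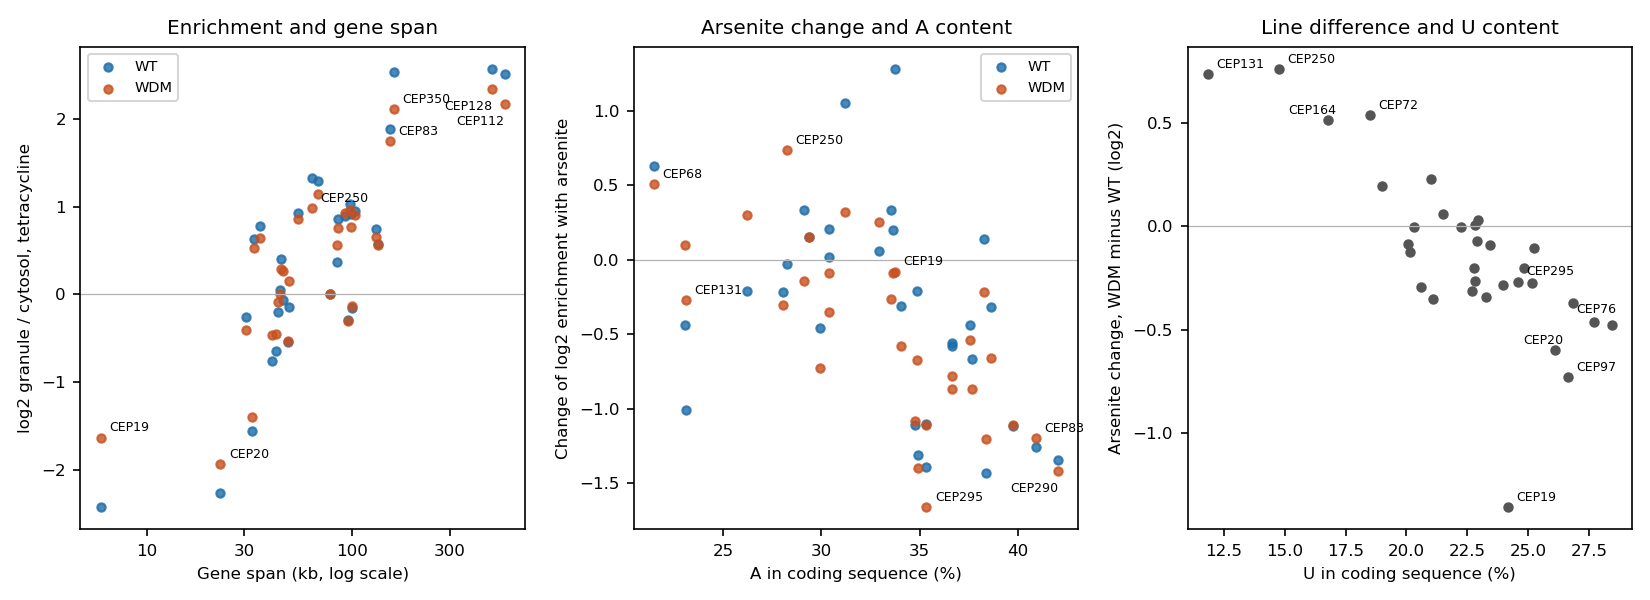
Left, log2 granule to cytosol ratio without arsenite against gene span on a log axis; middle, change of that ratio with arsenite against the A share of the coding sequence; right, difference between the lines in that change (WDM minus WT) against the U share. Points are the 32 tested CEP genes (WT blue, WDM orange, grey for the difference), rising on the left and falling in the other panels.

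In cytosol arsenite raised 5 members and lowered 4 in WT, against 13.7% and 15.4% of 16670 genes, and raised 6 and lowered 5 in WDM, against 14.1% and 14.8%. With libraries scaled by their totals alone these became 9 and 1 in WT and 8 and 1 in WDM, so which of the small changes passed depends on the scaling. CEP83, CEP95, CEP128 and CEP162 rose in both lines and CEP19, CEP20, CEP97 and CEP250 fell in both. CEP83 rose most firmly, by 0.60 ± 0.08 in WT (adjusted p = 5.37e-05) and 0.61 ± 0.08 in WDM, and its libraries with arsenite were all above those without. CEP112 gave the largest estimate in WT, 0.88 ± 0.24, but lost its call in 3 of 6 fits with a library left out. Only CEP19 and CEP83 in WT and CEP83, CEP95 and CEP152 in WDM kept their calls in all such fits. With the replicate number as a block CEP78 was also called in WT (-0.19, adjusted p = 0.0494). CEP19 changed by -0.50 ± 0.12 in WT and -0.40 ± 0.12 in WDM. CEP20 changed by -0.39 ± 0.11 in WT and -0.41 ± 0.11 in WDM, with 118, 156 and 149 CPM and then 114, 121 and 121 in WT, where replicate 1 without arsenite lay within the arsenite range, and 83.5, 99.4 and 95.2 and then 63.6, 78.1 and 80.3 in WDM. No member differed between the lines in this effect, and no gene was called (0%; 0 members and 331 genes at an unadjusted p under 0.05).

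Tetracycline, which induces the transgene, changed no member of WT cytosol by the test, against 5.31% of genes, with 10 members at an unadjusted p under 0.05. With the replicate number as a block, CEP76 (0.37, adjusted p = 0.0156) and CEP290 (-0.32, adjusted p = 0.0198) were called, and DESeq2 called 1 member. Same-numbered WT untreated and tetracycline libraries deviated together (correlations 0.33, 0.29 and 0.13). The block also covered the WDM untreated and tetracycline libraries, which did not pair (-0.07, -0.08 and -0.13). It called the same genes in WDM, CEP76 at 0.35 (adjusted p = 0.0154) and CEP290 at -0.28 (adjusted p = 0.0347). In WDM 1 member rose and 5 fell, against 3.07% and 3.23% of genes. With libraries scaled by their totals the split was 2 and 4, and with DESeq2 2 and 5. CEP97 rose by 0.29 ± 0.08 and CEP19, CEP250, CEP41, CEP152 and CEP83 changed by -0.52 ± 0.12, -0.46 ± 0.11, -0.34 ± 0.08, -0.29 ± 0.08 and -0.28 ± 0.08. CEP19 had 15.6, 13.4 and 13.6 CPM untreated and 10.2, 10.1 and 9.21 with tetracycline. CEP250 had 98.1, 98.3 and 97.7 and then 71.8, 64.0 and 75.2 CPM, and CEP41, linked to tubulin glutamylation in cilia, 41.0, 36.8 and 37.1 and then 30.0, 27.5 and 31.8. In these 3 genes the groups did not overlap. All 6 calls depended on single libraries, between 0 and 4 members being called when any of the 6 was left out, and 0 without replicate 1 of untreated WDM cytosol. No member was called in the difference between lines (0.0180% of genes called, 1 member at an unadjusted p under 0.05).

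Between the lines in cytosol, a small set of members differed in every condition in the fit of all cytosol libraries. Untreated, 1 member was higher and 3 lower in WDM, against 4.19% and 5.60% of genes, or 3 and 3 with libraries scaled by their totals and 2 and 3 with DESeq2. When only the compared groups were fitted, many more members were called untreated and fewer with tetracycline. Those counts are given with the dependence on the processing, so the number of members that differ rests on which libraries share a fit. With tetracycline 0 were higher and 4 lower, against 5.80% and 6.84%, and with arsenite 0 and 3, against 4.98% and 5.37%. CEP19 had 21.1, 20.4 and 19.9 CPM in untreated WT cytosol and 15.6, 13.4 and 13.6 in WDM. CEP20 had 127, 127 and 122 against 94.7, 89.8 and 86.1 CPM, and CEP162 26.6, 28.9 and 27.5 against 23.2, 21.3 and 17.8. In all 3 conditions the lines did not overlap for any of these genes. CEP19 differed by -0.56 ± 0.11 (WDM minus WT) untreated, -0.78 ± 0.12 with tetracycline and -0.69 ± 0.12 with arsenite. CEP20 differed by -0.51 ± 0.11, -0.66 ± 0.11 and -0.69 ± 0.11, and CEP162 by -0.45 ± 0.11, -0.44 ± 0.11 and -0.39 ± 0.10. The call on CEP162 was lost in 1 of 6 fits with a library left out when untreated and in 2 of 6 with arsenite. CEP83 was higher in untreated WDM (0.33 ± 0.08), a call lost in 4 of 6 fits with a library left out, and CEP135 was lower with tetracycline (-0.27 ± 0.08), also lost in 4 of 6.

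For CEP19 and CEP20 the surrounding genes were lower in WDM too. Within 1 Mb of CEP19 on chromosome 3, 15 of 24 tested genes were lower in untreated WDM cytosol and none higher, with a median of -0.52. Around CEP20 on chromosome 16, 8 of 21 were lower and none higher, with a median of -0.32. The 11 neighbours of CEP162 on chromosome 6 had a median of 0.02, with 1 higher and 1 lower. Around CEP250 on chromosome 20, 9 of 32 genes fell with tetracycline in WDM, with a median of -0.34 against -0.05 in WT. Gene dosage was not measured.

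**Figure D5:**
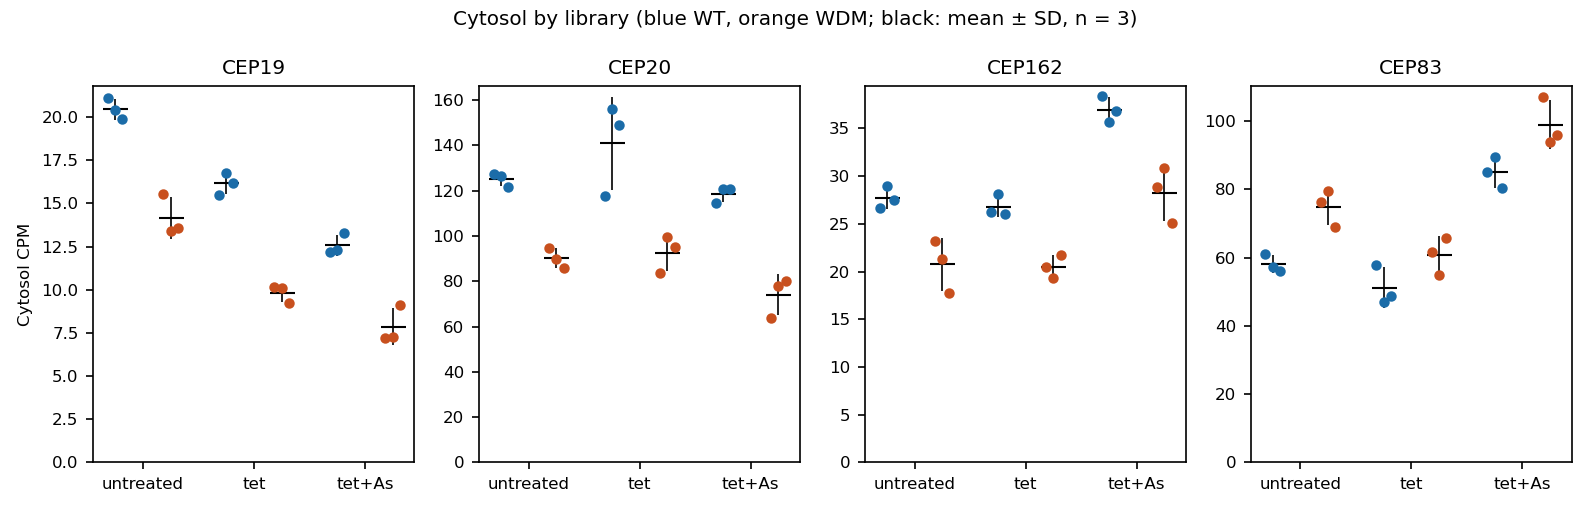
Cytosol CPM of CEP19, CEP20, CEP162 and CEP83 by library (points) in untreated, tetracycline (tet) and tetracycline plus arsenite (tet+As) cells, WT in blue and WDM in orange, with mean and SD of 3 libraries in black. The WDM libraries of CEP19, CEP20 and CEP162 lie below the WT libraries in each condition.

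Other centrosome genes were counted in the same way. Of 62 listed symbols, 55 were tested, among them PLK4, the pericentrin gene PCNT and several augmin subunits. Without arsenite 33 were higher in granules and 12 lower in WT (median 0.44), against 39.5% and 36.2% of all genes (median 0.07). In WDM 32 were higher and 13 lower, against 35.8% and 35.3%. With arsenite the counts were 21 and 17 in WT, against 35.0% and 35.5% of all genes, and 18 and 20 in WDM, against 36.3% and 35.7%. Enrichment rose with arsenite for 4 and fell for 21 in WT (median -0.37), and rose for 1 and fell for 22 in WDM (median -0.35). Over all genes 12.0% rose and 19.4% fell in WT (median -0.21), and 7.66% and 16.5% in WDM (median -0.17). The 2 lists of falling centrosome genes shared 18, which is 85.7% of the WT and 81.8% of the WDM list. ASPM, a spindle-pole gene of brain growth, fell most (-1.76 ± 0.27 in WT and -2.03 ± 0.27 in WDM), and OFD1, a satellite and centriole gene, changed by -1.10 ± 0.21 and -1.38 ± 0.21. SSX2IP rose in both lines, by 1.26 ± 0.22 and 0.66 ± 0.22.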

How the data were processed

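The authors deposited 1 table of raw read counts per gene for 30 libraries, made with Trimmomatic, STAR, Picard and featureCounts on GRCh38, per the submitters' processing notes, from rRNA-depleted stranded total RNA, per the labels' protocols. Versions, strand setting and annotation release are not given in the sources used here. The test across genes was that of edgeR 4.0.16 (R 4.3.3, filterByExpr with minimum count 10 and total 15, TMM factors, group means, robust quasi-likelihood F-test, Benjamini-Hochberg over all genes tested). The 18 cytosol, the 12 granule and the 24 tetracycline-treated libraries were fitted separately (16670, 18366 and 18141 genes), for 23 comparisons. The tests were checked on simulated data. CPM are counts over library totals. Lengths, base shares and sequences come from the canonical transcripts of GENCODE v44, in which 60463 identifiers were found. Replicates were compared before averaging (chi-square per degree of freedom 1.63 to 40.7), so none was a repeated library.

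The members and gene lists were chosen with earlier results of these data known. The 32 members with enough counts entered the fits, and 1 of them is not reported here by name. Values per library are given for those called in a change of enrichment and in each pair of groups for the called members of largest change whose groups did not overlap. They are also given for CEP295, which the choice of members named for its loss of enrichment with arsenite in WDM. Same-numbered replicates were taken as paired where all 3 correlations of their deviations exceeded 0.1, which held for 7 of 45 pairs of groups. In 2 of the 45 each library correlated best with its own number. The block covered every library of a fit, also groups that did not pair. Alternatives were RLE factors, library totals, no low-count filter, a replicate block, each library left out, only the compared groups, DESeq2 1.42.0 and, chosen after seeing the data, removal of each library's GC trend.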

Additional observations from a re-analysis of the deposited data

How the results depend on the processing

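Of 201 member values called over 23 comparisons, 0 reversed under any alternative run, and in 14 comparisons the number of members called stayed within 1.5 times in every alternative. The enrichment and its change with arsenite are among these 14. So are the tests of a difference between lines in the enrichment, in its change and in the treatment effects. In those 0 members were called, so that their steady count says little. The WT tetracycline effect in cytosol (0 called) gave 1 with RLE factors, 2 without the low-count filter, 2 with the replicate block, 1 with the GC trend removed and 1 with DESeq2. That of WDM (6 called) gave 2 without the filter. The arsenite effect in cytosol gave 4 in WT (9 called) and 1 in WDM (11 called) when only the compared groups were fitted, and 7 in WDM without the filter. With only the compared groups, the difference between lines in cytosol gave 13 untreated (4 called) and 2 with tetracycline (4 called), and that in granules without arsenite gave 0 (1 called). The arsenite effect in WDM granules (17 called) gave 11 with the GC trend removed. The cause of these shifts was not tested. Shares of all genes called in the alternative fits are not given here. The member counts under alternatives, here and above, therefore do not tell a change in the CEP genes from one in all genes.

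With each library left out in turn, the counts ran from 0 to 4 for the WT and 0 to 4 for the WDM tetracycline effect, from 4 to 12 and 4 to 11 for the arsenite effect in WT and WDM cytosol, from 7 to 13 and 9 to 15 for that in granules, from 3 to 9 for the line difference in tetracycline cytosol and from 0 to 1 for that in granules. The 4 in WT came without replicate 1 of WT tetracycline cytosol, which also gave the 9. The lowest counts came without WDM untreated cytosol replicate 1 (0), WT tetracycline cytosol replicate 3 (4), WDM tetracycline cytosol replicate 2 (4), WT tetracycline granule replicate 3 (7), WDM arsenite granule replicate 3 (9), and, for the line difference in granules (0), WT tetracycline granule replicate 2 or WDM tetracycline granule replicate 1 or 3. Counts also moved by over 1.5 times without WDM untreated cytosol replicate 2 or 3 or WDM tetracycline cytosol replicate 2 or 3 (1 or 2 for the tetracycline effect), WT tetracycline or arsenite cytosol replicate 2 (5), WDM tetracycline cytosol replicate 3 (7), WDM arsenite cytosol replicate 1 or 2 (5 and 6) and WT arsenite granule replicate 3 (9). A fit that leaves out a library keeps 2 in that group. With the replicate block, 200 of the 201 called values kept their call; the call on CEP170 in WDM granules was lost, 9 calls were gained, and the pairing changed no other call. Library totals moved the median of all genes in WT cytosol with arsenite from -0.02 to 0.11 and that of the line difference in the enrichment change from 0.01 to 0.11. For the enrichment change, GC trend removal moved it from -0.21 to -0.08 in WT and DESeq2 from -0.17 to -0.04 in WDM. At these depths CEP19 and CEP126 rest on as few as 23 and 35 counts in a library.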

Other observations

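A list of 22 genes that act in the later cell cycle and mitosis, of which 21 were tested, had more members lower than higher in granules. Without arsenite 4 were higher and 15 lower in WT granules than in WT cytosol (median -0.50), against 39.5% and 36.2% of all genes. In WDM the counts were 3 and 12 (median -0.39), against 35.8% and 35.3%. With arsenite the counts were 2 and 15 in WT (median -0.76), against 35.0% and 35.5% of all genes. In WDM they were 2 and 17 (median -0.94), against 36.3% and 35.7%. The summed level of the list was not lower in WT granules, at 5176 to 5262 CPM in WT cytosol and 5303 to 6330 in WT granules without arsenite, and 4599 to 4992 against 3748 to 5320 in WDM. In WDM cytosol with tetracycline 7 of the 21 were lower than in WT and 0 were higher, against 6.84% and 5.80% of all genes. Among the CEP genes CEP55, itself a gene of late division, was depleted from granules in the same way, at -1.56 ± 0.13 in WT and -1.41 ± 0.13 in WDM without arsenite. Over 8 abundant short housekeeping mRNAs the summed level was 11870 to 16642 CPM in cytosol libraries and 2453 to 5512 in granule libraries.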
